A study of Mus musculus with 39 samples.

Results

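Fertilization turns an MII oocyte, arrested at metaphase of the second meiotic division, into a 1-cell embryo with a maternal and a paternal pronucleus. The comparison described here set 3 arrays of untreated 1-cell embryos against 3 arrays of untreated MII oocytes, 6 of the 39 arrays of a mouse series that also covered other stages and embryos treated with inhibitors of histone deacetylases. The arrays were chosen by their labels alone, and all 18049 genes that could be measured in both groups were compared. The RNA on each array came from 100 oocytes or embryos. MII oocytes were taken from the oviducts of superovulated B6D2F1 females of 8 to 9 weeks. The 1-cell embryos came from such oocytes after in vitro fertilization with sperm of ICR males of 15 to 20 weeks and were collected 12 h post-insemination. Before collection they were freed of sperm by pipette and kept in culture medium, steps described only for embryos. Fertilization, handling, culture and elapsed time therefore cannot be told apart in this comparison. The labels give the strain of all samples as B6D2F1 x ICR. Neither group had been exposed to a compound. The study describes the 3 pools of treated and control embryos at a stage as independent biological replicates, without saying whether this also held for the MII oocytes or whether each pool came from females and a fertilization of its own.

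A mature oocyte is transcriptionally silent and carries mRNAs stored during growth, many of them dormant with short poly(A) tails. Cytostatic activity, which depends on the kinase Mos and on the inhibitor Emi2 (Fbxo43) of the anaphase-promoting complex, holds it at metaphase until sperm entry sets off calcium oscillations. The embryo then completes meiosis, replaces protamines in the sperm chromatin by histones, reprograms DNA methylation, replicates its DNA and begins a first, weak wave of transcription, while maternal mRNAs are adenylated, translated or degraded. Because the labelling kit starts from an oligo(dT) primer, which binds poly(A), and each array was scaled to the others, the amount of an mRNA and its poly(A) tail cannot be told apart in these signals, nor can more mRNA per cell and a larger share of that mRNA.

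The 6 arrays were of similar quality. Signals were positive and significant for 64.9 to 69.2% of the spots on an array and well above background, a stricter flag of the scanner software, for 44.7 to 50.6%, with 0 saturated spots. Pairs of MII arrays correlated with a mean r of 0.991 over genes, pairs of 1-cell arrays with 0.990 and pairs of 1 MII and 1 1-cell array with 0.967. Each of 3 slides held 1 MII array and 1 1-cell array, but MII always occupied the same position on the slide and 1-cell always another, so that stage and array position cannot be told apart. All 12 oocyte markers listed were well above background on all arrays. Of 25 markers of cumulus and granulosa cells, 14 were on no array well above background, among them Amh, Lhcgr, Star, Ptx3 and Inha, while 9 were so on all 3 MII arrays and 9 on all 3 1-cell arrays, both times with Foxl2, Nr5a2 and Cyp19a1. The summed signal of the list was 23220 to 23790 on MII arrays and 21240 to 23960 on 1-cell arrays, most of it from the probe of Foxl2 (14290 to 17830). Of the 17 that could be tested 4 rose (23.5%, against 13.4% of all genes) and 2 fell (11.8%, against 6.05%). The rises were those of Fshr, Krt18, Col4a2 and Vcan. Fshr was well above background on no MII array, and Krt18 on no MII array and only 1 1-cell array. Cyp19a1 and Ptgs2 fell, Ptgs2 to no 1-cell array well above background. The signal of Cyp19a1 went from 3316 to 3876 in MII to 1519 to 2025 in 1-cell. Of 14 markers of oviduct epithelium and blood, 9 were on no array well above background, with sums of 600.1 to 751.1 and 648.3 to 761.5. Of 20 markers of sperm and spermatids, 11 were on no array well above background, including Prm1, Tnp2 and Odf1, while the sum was 1612 to 1793 on MII arrays and 2902 to 3037 on 1-cell arrays. Most of that sum was the signal of Prm2, which was well above background on every MII array, with 1269 to 1426 there and 2428 to 2442 on the 1-cell arrays. The part of RNA from sperm or cumulus cells in the differences below was not tested.

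Fertilization was accompanied by more rises than falls. Of the 18049 genes, 3504 (19.4%) were differentially expressed genes (DEGs), defined by a log2 fold change (LFC, mean log2 signal of 1-cell minus MII) of 1 or more in either direction together with a limma adjusted p below 0.05. Of these, 2412 (13.4%) were higher and 1092 (6.05%) lower in 1-cell embryos, so that 68.8% of the DEGs rose. The median LFC of all genes was 0.0478, with quartiles of -0.37 and 0.59. The share of rises depended on how the arrays were scaled. It was 64.5% when arrays were scaled to their 75th percentile, 59.1% with quantile normalization and 49.3% with scaling to the median, under which the median LFC of all genes was -0.2.

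Changes above 4-fold were seen for 513 genes that rose and 240 that fell, and changes above 8-fold for 53 and 61. The 1-cell and MII arrays did not overlap for 3497 of the 3504 DEGs. Over all genes tested they did not overlap for 58.2%, with 1-cell higher for 30.8% and lower for 27.4%. Within the slides, 3501 DEGs differed in the same direction on all 3, and 2423 differed by an LFC of at least 1 on every slide. For comparison, in a fit of the 24 untreated arrays of 8 stages over 17329 genes, the step from GV oocytes (germinal vesicle stage, before meiotic maturation) to MII gave 68 genes that rose and 7971 that fell. The step from MII to 1-cell gave 2718 and 887 in that fit and the step from 1-cell to 2-cell 2801 and 5867. These steps share the MII or the 1-cell arrays, and each has its own median LFC, of -0.90, 0.127 and -0.50.

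**Figure D1:**
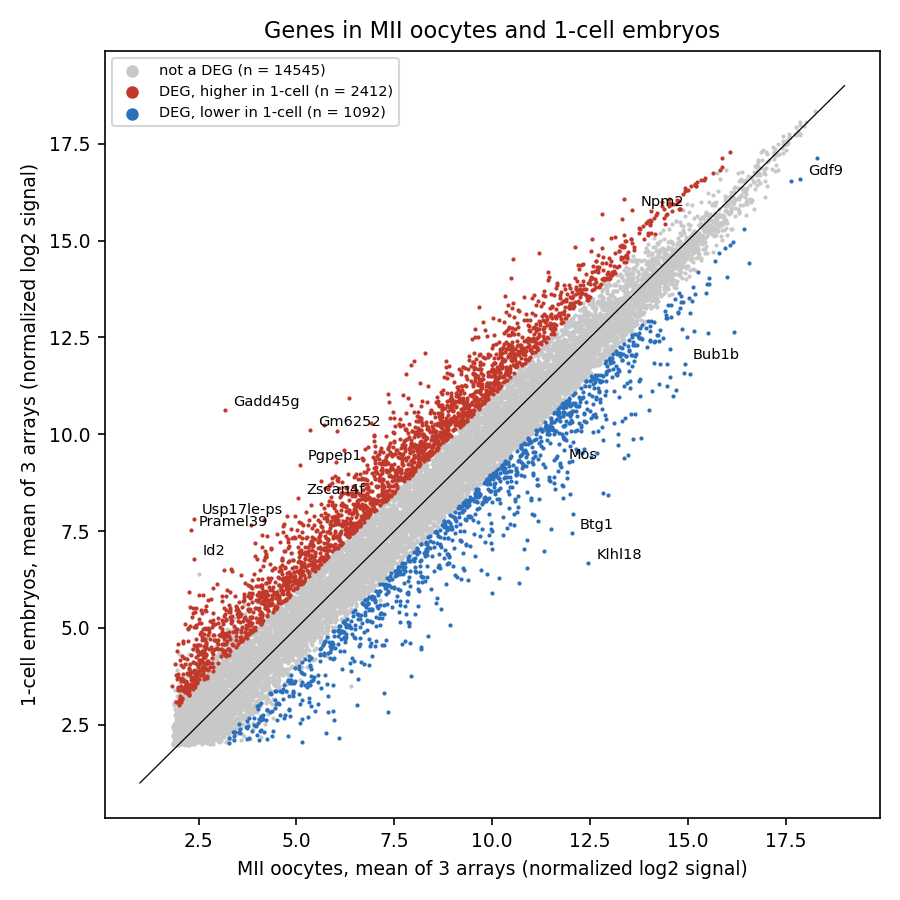
Mean normalized log2 signal of 18049 genes in MII oocytes (x axis, 3 arrays) and 1-cell embryos (y axis, 3 arrays), 1 point per gene, with the line of equal levels. Red points are the 2412 DEGs higher in 1-cell embryos and blue points the 1092 lower ones; Gadd45g lies farthest above the line and Klhl18 farthest below it.

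The largest rise was that of Gadd45g, a stress-inducible protein of the growth arrest and DNA damage family. Its normalized log2 signal was 3.23, 3.03 and 3.25 on the MII arrays, none well above background, and 10.84, 10.30 and 10.72 on the 1-cell arrays, all well above it. The groups were far apart, and because MII was dim, only a bound can be given, of at least 87.0-fold higher in 1-cell (adjusted p = 0.00021). Bounds of this kind set the bright group's mean against, for each array of the dim group, the lowest signal that counted as well above background or the probe's own signal, whichever was higher. Id2, an inhibitor of basic helix-loop-helix transcription factors, was at 1.80, 3.56 and 1.81 on the MII arrays, again not well above background, and at 7.53, 6.02 and 6.77 on the 1-cell arrays. It was at least 6.05-fold higher (adjusted p = 0.00232), and its spread was wider than that of Gadd45g in both groups. With normexp background correction, which damps differences of dim probes, the LFC of Gadd45g was 4.56 and that of Id2 1.40, both less than the bounds above. Those bounds hold only with the background correction of the deposited values. Pgpep1, a peptidase that removes N-terminal pyroglutamate, was measured in both groups, at 5.12, 5.03 and 5.10 in MII and 9.46, 8.86 and 9.33 in 1-cell (LFC 4.14 ± 0.17, SE, adjusted p = 0.000235).

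The other 5 of the 8 largest rises belonged to repeated gene families, pseudogenes or a long noncoding RNA. Usp17le-ps, a pseudogene of the Usp17-like deubiquitinases, went from 2.13, 2.15 and 2.86 to 8.45, 7.14 and 7.88 (at least 12.5-fold higher). Pramel39, of the Prame-like family, went from 2.02, 2.95 and 1.91 to 8.71, 6.39 and 7.47 (at least 10.2-fold higher). Neither was well above background on an MII array, and both families hold many near-identical copies, so that a probe may report several of them. With normexp the LFC was 2.20 for Usp17le-ps and 1.95 for Pramel39, less than these bounds. The pseudogene Gm6252 had an LFC of 4.76 with 2 of 3 MII arrays well above background. Gm17821, also a pseudogene, had an LFC of 4.60 and the long noncoding RNA A130077B15Rik one of 4.53, both with all 6 arrays well above background. Whether their probes also bind transcripts of a parent gene was not tested.

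The largest fall was that of Klhl18, an adaptor of a cullin ubiquitin ligase. Its log2 signal was 12.80, 12.24 and 12.29 on the MII arrays and 5.93, 7.21 and 6.89 on the 1-cell arrays (LFC -5.77 ± 0.36, SE, adjusted p = 0.000267). Btg1, an antiproliferative protein that binds the CCR4-NOT deadenylase, fell from 12.38, 11.76 and 11.94 to 6.69, 8.36 and 7.28 (LFC -4.58). In both genes the groups lay far apart and the 1-cell arrays were still well above background, with a wider spread than the MII arrays. Slc20a2, a phosphate transporter, had an LFC of -4.52, with a second probe at -2.86. The homeobox gene Evx1 had one of -4.35, and Rnf215 and the autophagy-related gene Tbc1d14 one of -4.33 each. A second probe of Tbc1d14 gave -3.38. Lmtk2, a membrane-bound kinase, was at 7.49, 7.19 and 7.33 on the MII arrays and not well above background on any 1-cell array, at least 8.55-fold lower, while normexp gave an LFC of -1.68, less than that bound.

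**Figure D2:**
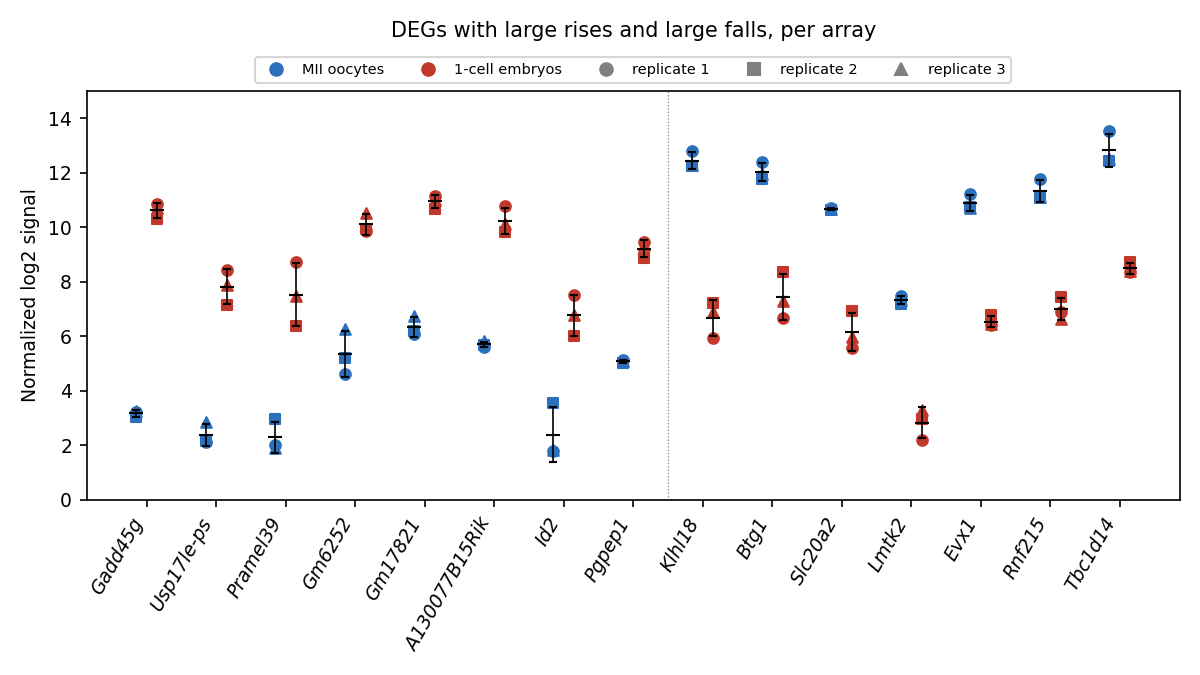
Normalized log2 signal (y axis) of the 8 genes that rose most and 7 of the 8 that fell most (x axis), 1 symbol per array in blue for MII oocytes and red for 1-cell embryos, with mean and SD (n = 3). Genes were taken only if their groups did not overlap, and Gadd45g is near the bottom of the scale on all 3 MII arrays.

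Promoter sequences of genes that moved far in each direction are shown so that the 2 directions can be set side by side. They span 250 bases before to 50 after the annotated start in the RefSeq annotation of GRCm38.p6, 5′ to 3′ on the strand of the gene. Capitals mark 4 short motifs on either strand, the TATA box letters TATAAA, the CAAT box letters CCAAT, the GC box letters GGGCGG and the cyclic AMP response element TGACGTCA. Gadd45g (chr13:51846425-51846724, plus strand) and Id2 (chr12:25096043-25096342, minus strand) rose, and Klhl18 (chr9:110476645-110476944, minus strand) and Btg1 (chr10:96616751-96617050, plus strand) fell.
Gadd45g: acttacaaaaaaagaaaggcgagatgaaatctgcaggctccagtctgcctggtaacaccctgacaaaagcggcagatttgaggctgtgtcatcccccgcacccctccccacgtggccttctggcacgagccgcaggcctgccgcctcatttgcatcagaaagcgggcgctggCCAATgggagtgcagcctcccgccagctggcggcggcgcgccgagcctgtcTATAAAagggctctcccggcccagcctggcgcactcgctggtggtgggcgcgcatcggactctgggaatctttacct
Id2: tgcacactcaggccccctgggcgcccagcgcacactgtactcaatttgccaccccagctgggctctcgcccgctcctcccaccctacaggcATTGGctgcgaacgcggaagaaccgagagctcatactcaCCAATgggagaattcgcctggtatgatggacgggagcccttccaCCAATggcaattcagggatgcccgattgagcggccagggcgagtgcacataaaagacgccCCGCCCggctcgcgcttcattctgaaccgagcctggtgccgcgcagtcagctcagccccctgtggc
Klhl18: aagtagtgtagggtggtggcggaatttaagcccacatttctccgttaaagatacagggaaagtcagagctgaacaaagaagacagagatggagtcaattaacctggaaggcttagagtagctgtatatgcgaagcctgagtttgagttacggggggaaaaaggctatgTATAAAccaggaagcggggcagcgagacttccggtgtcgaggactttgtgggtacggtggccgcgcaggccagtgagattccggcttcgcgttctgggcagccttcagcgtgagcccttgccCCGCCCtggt
Btg1: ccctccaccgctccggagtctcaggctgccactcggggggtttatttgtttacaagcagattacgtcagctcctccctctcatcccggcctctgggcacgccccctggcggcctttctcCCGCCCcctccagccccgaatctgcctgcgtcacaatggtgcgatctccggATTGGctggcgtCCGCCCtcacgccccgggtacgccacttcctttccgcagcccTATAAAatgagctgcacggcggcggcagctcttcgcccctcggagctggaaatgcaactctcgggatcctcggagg

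The promoters of Gadd45g and Btg1 each hold 1 TATAAA, at -27 and -26 from the start, and 1 CCAAT, and that of Btg1 also has 2 GGGCGG. Id2 has 3 CCAAT and 1 GGGCGG, and Klhl18 has 1 TATAAA at -82 and 1 GGGCGG. A match of these letters is no sign of a bound factor. Over the 14130 tested genes with a promoter in the table, TATAAA stood in 10.4% of promoters, CCAAT in 38.9%, GGGCGG in 53.0% and TGACGTCA in 2.77%. Among the 870 promoters of DEGs that fell, GGGCGG stood in 66.2% and TATAAA in 7.24%, with a median GC content of 62%. Among the 1920 promoters of DEGs that rose, the shares were 55.7% and 11.1%, with a median GC content of 58%, the same median as for the 11340 genes that were not called. These shares are descriptions, and no test was made of them.

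Of 41 genes listed for meiotic arrest and M phase, 10 rose (24.4%, against 13.4% of all genes), 3 fell (7.32%, near the 6.05% of all genes) and 28 were not called, with a median LFC of 0.0197, near that of all genes. Mos, the kinase at the head of the MAPK pathway of the arrested oocyte, fell from 12.20, 11.51 and 11.49 to 9.32, 9.19 and 9.28 (LFC -2.47 ± 0.21, SE, adjusted p = 0.000474). Bub1b, the spindle checkpoint kinase BubR1, fell from 15.06, 14.85 and 14.84 to 11.40, 12.46 and 11.61 (LFC -3.09 ± 0.28, SE, adjusted p = 0.000575). Neither gene overlapped between the groups. Espl1, the separase that cleaves cohesin, was the other gene of the list that fell (LFC -1.03).

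Genes that rose included Cdc25b, a phosphatase that activates cyclin-dependent kinase 1, at 9.74, 9.88 and 9.83 in MII and 12.90, 12.46 and 12.70 in 1-cell (LFC 2.87 ± 0.14, SE). They also included Fzr1, an activator of the anaphase-promoting complex (LFC 2.33), Wee1, an inhibitory kinase of cyclin-dependent kinase 1 (LFC 2.26), Mapk3 (LFC 2.00) and the ubiquitin-conjugating enzyme Ube2c (LFC 1.79). An activator and an inhibitor of Cdk1 were both among them. Other central members were not called. Ccnb1, cyclin B1, had an LFC of -0.16 (adjusted p = 0.207), with 2 further probes at 0.64 and 0.45, the anaphase-promoting complex activator Cdc20 one of -0.06 and the oocyte-specific kinase Wee2 one of 0.35 (adjusted p = 0.0651). Fbxo43, the Emi2 of the arrested oocyte, was lower with an adjusted p of 0.00296 but by an LFC of only -0.75.

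Of 45 genes that act on the tails and the decay of maternal mRNA, 10 rose (22.2%, against 13.4% of all genes) and 4 fell (8.89%, against 6.05%). The other 31 were not called, and the median LFC was -0.16, while scaling to the median gave 7 rises and 10 falls. Pabpc1l, the embryonic poly(A)-binding protein, rose from 10.83, 10.48 and 10.67 to 13.60, 12.70 and 13.36 (LFC 2.56 ± 0.25, SE, adjusted p = 0.000693). The poly(A) polymerase Papolg (LFC 2.39), the deadenylase subunit Cnot10 (LFC 1.76), the oocyte mRNA-binding protein Ybx2 (LFC 1.75), the decapping enzyme Dcp2 (LFC 1.5) and the deadenylase Parn (LFC 1.26) rose too. The genes that fell were Lsm14b, an RNA-binding protein of stored mRNPs (LFC -1.95, with a second probe at -0.54), Tnks1bp1, a partner of CCR4-NOT (LFC -1.85), the canonical poly(A) polymerase Papola (LFC -1.32) and Pabpn1l, a poly(A)-binding adaptor of maternal mRNA clearance (LFC -1.20). Btg4, which links CCR4-NOT to maternal mRNAs, was at 14.80, 15.24 and 15.29 in MII and 14.52, 15.01 and 15.07 in 1-cell, and was not called (LFC -0.25 ± 0.21, SE, adjusted p = 0.389). The deadenylase subunits Cnot6l (LFC -0.06) and Cnot7 (LFC -0.16) were not called either.

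Of 15 tested genes of the egg coat and of sperm binding, 5 fell (33.3%, against 6.05% of all genes) and 1 rose, with a median LFC of -0.30. The genes that fell were Cd81, a tetraspanin of the oocyte membrane (LFC -2.21, and -1.18 with normexp), Astl, the cortical granule protease ovastacin that cleaves Zp2 (LFC -1.62), Plat, tissue plasminogen activator (LFC -1.45), the zona pellucida gene Zp1 (LFC -1.25) and Cd55 (LFC -1.14). Astl was at 14.92, 14.68 and 14.66 in MII and 13.08, 13.21 and 13.11 in 1-cell, without overlap. Izumo1r, the egg receptor Juno of the sperm protein Izumo1, was the gene that rose (LFC 1.04). Zp3, the zona glycoprotein, was not called (LFC -0.30, adjusted p = 0.0472). The 5 falls were the same in number with each of the other scalings.

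Of 28 genes of oocyte growth and identity, 2 fell (7.14%, near the 6.05% of all genes) and 1 rose (3.57%, against 13.4%), with a median LFC of 0.0236. The paracrine factor Gdf9 was at 17.74, 17.91 and 17.94 in MII and 16.32, 16.82 and 16.59 in 1-cell (LFC -1.29 ± 0.15, SE, adjusted p = 0.00132), and the oocyte linker histone H1f8 fell by an LFC of -1.17. Bmp15, the partner of Gdf9, moved the other way, from 14.97, 14.53 and 14.62 to 16.17, 15.71 and 15.99 (LFC 1.25 ± 0.17, SE, adjusted p = 0.00233), though not with scaling to the median (LFC 0.86). The oocyte transcription factors Nobox, Figla and Lhx8 were measured and not called.

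Maternal-effect genes, whose maternal product the embryo requires, gave 6 rises (18.2%, against 13.4% of all genes) and 3 falls (9.09%, against 6.05%) of 33 tested. Scaling to the median gave 5 and 7. Ube2a, a ubiquitin-conjugating enzyme, rose from 10.15, 9.93 and 10.00 to 13.13, 12.87 and 13.03 (LFC 2.98 ± 0.11, SE, adjusted p = 0.000235), and a second probe gave an LFC of 1.07. Zfp57, which guards imprinted methylation, had an LFC of 2.25, with a second probe at 1.28. Npm2, the oocyte nucleoplasmin, had one of 2.22 with levels of 13.43, 13.73 and 13.57 in MII and 16.02, 15.59 and 15.78 in 1-cell. In the subcortical maternal complex Nlrp5 (LFC 1.02) and Ooep (LFC 1.36) rose, the former close to the threshold, with an LFC as low as 0.62 when arrays were scaled to the median. The falls were those of Cdh1, E-cadherin (LFC -2.52), Trim28, the corepressor partner of Zfp57 (LFC -1.32), and Zar1 (LFC -1.10), while its paralog Zar1l rose (LFC 2.01).

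**Figure D3:**
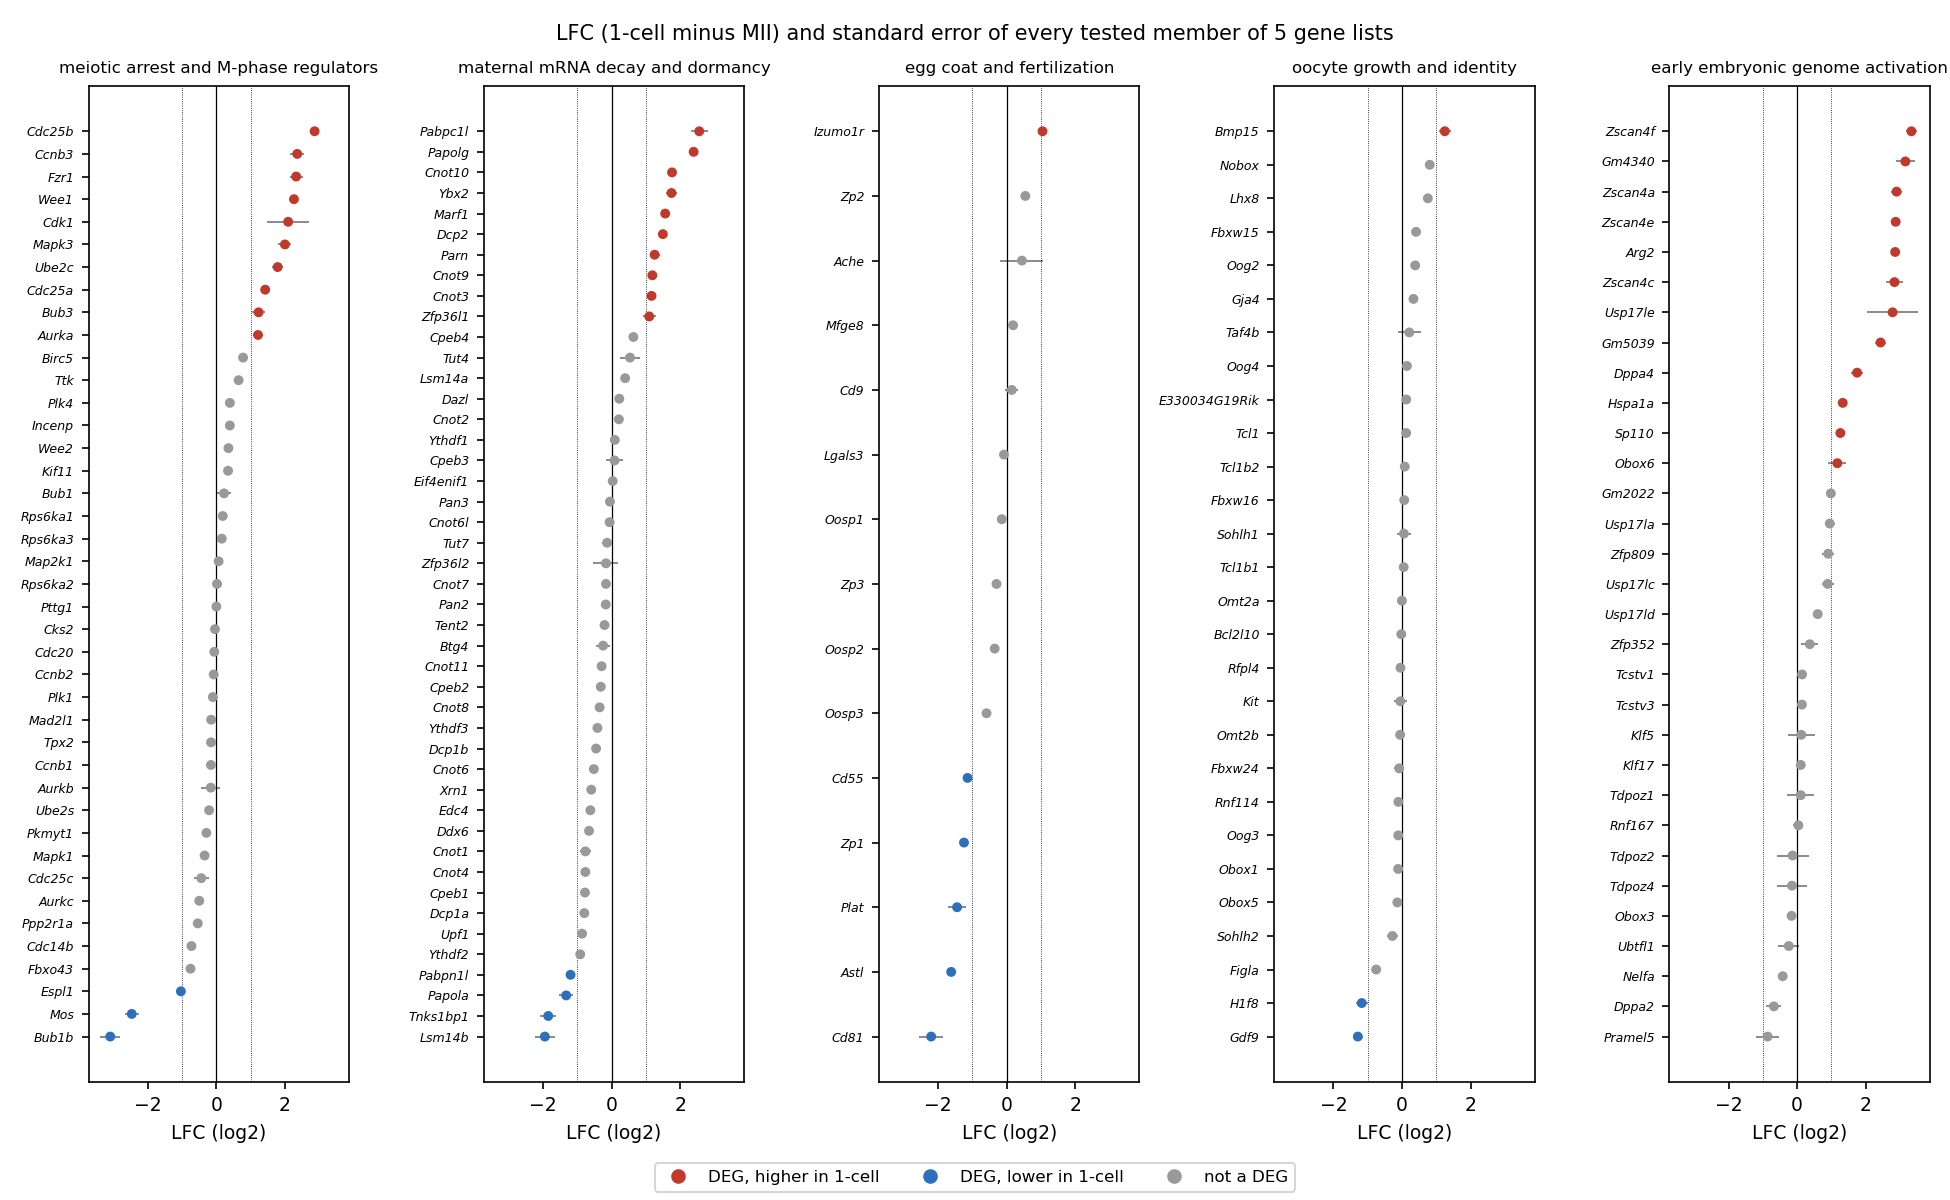
LFC (x axis, 1-cell minus MII, log2 scale) with its standard error for every tested member (y axis) of 5 gene lists, in red or blue where the gene was a DEG and in grey where it was not, with dotted lines at an LFC of 1 and -1. The list of early genome activation has 12 members to the right that were called and 0 to the left, and that of oocyte growth lies close to 0. The 12 include Zscan4a, Zscan4c, Zscan4e and Zscan4f, whose transcripts are near-identical, and Obox6, well above background on no array.

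Genes known for the first transcription of the embryo had the largest share of rises among the 19 lists. Of 31 tested, 12 rose (38.7%, against 13.4% of all genes), 0 fell and 19 were not called, with a median LFC of 0.89. The 12 rises count the 4 Zscan4 genes below one by one and include Obox6, which was well above background on no array. The ranking was not repeated with the Zscan4 genes taken as 1. With scaling to the median 10 rose and 1 fell. Zscan4f, of a zinc finger family known for its burst in 2-cell embryos, rose from 4.98, 4.92 and 5.19 to 8.65, 8.15 and 8.29 (LFC 3.33 ± 0.16, SE, adjusted p = 0.000235), an LFC of 2.04 with normexp. Zscan4a (LFC 2.90), Zscan4e (LFC 2.87) and Zscan4c (LFC 2.84) rose with it, but their transcripts are near-identical and their probes may share target, so that they do not count as 4 separate genes. Gm4340 rose from 5.51, 5.59 and 5.79 to 9.18, 8.15 and 9.02 (LFC 3.15 ± 0.28, SE), Arg2, the mitochondrial arginase, had an LFC of 2.86 and Dppa4 one of 1.75. Hspa1a, the inducible heat shock protein that is a classical mark of early embryonic transcription, rose from 5.74, 5.55 and 5.55 to 7.10, 6.87 and 6.85 (LFC 1.33 ± 0.12, SE, adjusted p = 0.000492), but with normexp the LFC was 0.74 and no longer called. The homeobox gene Obox3, stored by the oocyte, was not called (LFC -0.16). Zscan4d and Hspa1b were not tested.

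Genes of the pronuclei and of DNA methylation gave 10 rises (24.4%, against 13.4% of all genes) and 2 falls (4.88%, against 6.05%) of 41. The median LFC of this list was -0.11, below that of all genes. Besides Gadd45g, Zfp57 and Npm2, Chaf1a, the large subunit of the chromatin assembly factor CAF-1, rose from 10.99, 10.80 and 10.78 to 13.40, 12.81 and 13.12 (LFC 2.25 ± 0.17, SE, adjusted p = 0.000365), and its partner Chaf1b rose as well (LFC 1.55). Srpk1, the kinase that acts on protamines, had an LFC of 2.23 and the maintenance methyltransferase Dnmt1 one of 1.63. Gadd45b, a relative of Gadd45g, had an LFC of 1.98. Dppa3, which protects the maternal genome from oxidation of methylcytosine, and Tet3, the enzyme that carries it out, were not called (LFC -0.13 and -0.11), though 2 further probes of Tet3 gave 0.70 and 0.44.

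Of 52 genes of DNA replication, 8 rose (15.4%, near the 13.4% of all genes) and 1 fell. Fen1, the flap endonuclease of lagging strand synthesis, rose from 5.95, 5.93 and 5.86 to 9.06, 8.23 and 8.96 (LFC 2.84 ± 0.23, SE, adjusted p = 0.000433). Orc3 of the origin recognition complex had an LFC of 2.29, though its second probe gave 0.13 and the mean of its probes 1.22. The primase subunits moved in opposite directions, Prim1 up (LFC 1.74) and Prim2 down (LFC -1.81). On the mean of its probes Prim2 had an LFC of -1.05, but its second probe was well above background on no array. Pcna, the sliding clamp, was not called (LFC -0.31, adjusted p = 0.0344). Among 32 cyclins, cyclin-dependent kinases, their inhibitors and members of the Rb and E2F families 9 rose (28.1%, against 13.4% of all genes) and 1 fell, while the median LFC was -0.13. Cdkn1a, the inhibitor p21, was at 4.21, 4.27 and 4.13 in MII, 1 array of 3 well above background, and at 7.17, 7.06 and 6.73 in 1-cell (LFC 2.78 ± 0.14, SE, adjusted p = 0.000236), and the LFC was 1.22 with normexp. On the mean of its probes Cdkn1a had an LFC of 1.355, with a second probe that was well above background on no array. Cdk2 rose (LFC 2.09), Cdk7 fell (LFC -1.0) and cyclin A2 (Ccna2) was not called (LFC -0.07).

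Genes of egg activation, which signals through calcium and zinc, gave 9 rises and 3 falls of 34 (26.5% and 8.82%, against 13.4% and 6.05% of all genes). Orai1, the store-operated calcium channel of the plasma membrane, was at 7.81, 7.73 and 7.65 in MII and 11.10, 10.97 and 10.99 in 1-cell (LFC 3.29 ± 0.09, SE, adjusted p = 0.000235), and a second probe gave 1.23. Its activator Stim1, the calcium sensor of the endoplasmic reticulum, fell (LFC -1.19). Calm2 rose (LFC 2.25, with a second probe at 1.39) and Calm3, another calmodulin gene, fell (LFC -1.0). Itpr3, a calcium release channel, fell (LFC -1.21), and 3 of the 9 rises were those of zinc genes, the transporters Slc39a6 (LFC 1.79) and Slc30a2 (LFC 1.55) and the metallothionein Mt1 (LFC 1.35).

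Housekeeping machinery was also measured. Among 85 cytosolic ribosomal proteins 19 rose (22.4%, against 13.4% of all genes) and 1 fell (1.18%, against 6.05%), with a median LFC of 0.388. Among 78 mitochondrial ones 18 rose (23.1%) and 2 fell (2.56%), with a median of 0.349. Rpl24 was at 9.63, 9.58 and 9.46 in MII and at 13.02, 12.51 and 12.66 in 1-cell (LFC 3.17 ± 0.15, SE, adjusted p = 0.000235), Rps9 had an LFC of 2.03 and Mrpl33 one of 2.5. Rpsa was the cytosolic ribosomal gene that fell (LFC -1.21). Of 52 translation initiation factors 12 rose (23.1%) and 1 fell (1.92%). The helicase cofactor Eif4h rose from 7.47, 7.20 and 7.33 to 11.18, 10.66 and 11.29 (LFC 3.70 ± 0.19, SE, adjusted p = 0.000244), and Eif4b (LFC 2.22) and the cap-binding protein Eif4e (LFC 1.15) rose too. The gene that fell was Eif2ak3, the kinase PERK that restrains initiation under stress (LFC -2.47, and -1.46 with normexp).

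Of 48 proteasome genes 12 rose (25%, against 13.4% of all genes) and 2 fell (4.17%, against 6.05%). The rises were led by the ATPase Psmc1 (LFC 2.77, with a second probe at 1.55) and the catalytic subunit Psmb7 (LFC 2.62). Of 90 genes of the respiratory chain and ATP synthase 13 rose and 0 fell, close to the 13.4% of all genes, with Ndufc2 at an LFC of 1.95 and Atp5g2 at 1.83. Scaling to the median gave 9 and 3. In the supply of pyruvate, glucose and lipid 9 of 50 rose (18%, against 13.4% of all genes) and 3 fell (6%, near the 6.05%). Hadha of fatty acid oxidation rose (LFC 1.98), Cpt2, which acts before it in the mitochondrion (LFC -1.5), and the pyruvate carrier subunit Mpc2 (LFC -1.45) fell, and the glucose transporter Slc2a1 was not called (LFC -0.15).

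Of 26 chaperones 5 rose (19.2%, against 13.4% of all genes) and 1 fell (3.85%, against 6.05%). Hsp90aa1 rose from 11.77, 11.69 and 11.71 to 13.74, 13.09 and 13.69 (LFC 1.79 ± 0.19, SE). Hspa13 was called lower (LFC -1.83) and Hspa4 higher (LFC 1.67), but other probes of the same genes disagreed, with 1.11 for Hspa13 and -0.73 and -0.17 for Hspa4, and neither was called on the mean of its probes (LFC -0.37 and 0.26). Of 78 spliceosome genes 6 rose (7.69%, below the 13.4% of all genes) and 7 fell (8.97%, against 6.05%). Of 83 genes of RNA polymerase II, the Mediator and general or TBP-associated factors 8 rose (9.64%) and 4 fell (4.82%). Both lists had a median LFC below that of all genes (-0.21 and -0.18). Sf3b3 (LFC 2.23, with a second probe at 0.42), Lsm6 (LFC 1.95) and Prpf3 (LFC 1.87) rose, and U2af1, which recognizes the end of the intron, fell (LFC -1.61). Gtf2a1l, a germ cell form of the initiation factor TFIIA, fell from 12.55, 12.16 and 12.16 to 9.37, 9.80 and 9.37 (LFC -2.78 ± 0.18, SE, adjusted p = 0.000277), and Taf8 of TFIID fell as well (LFC -2.55). Of the 8 rises in the RNA polymerase II list 2, Taf1c and Taf1d (LFC 1.14), belong to a factor of RNA polymerase I. Taf1c, well above background on no MII array, was at least 2.62-fold higher. With normexp its LFC was 0.67, less than that bound, and it was no longer called.

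**Figure D4:**
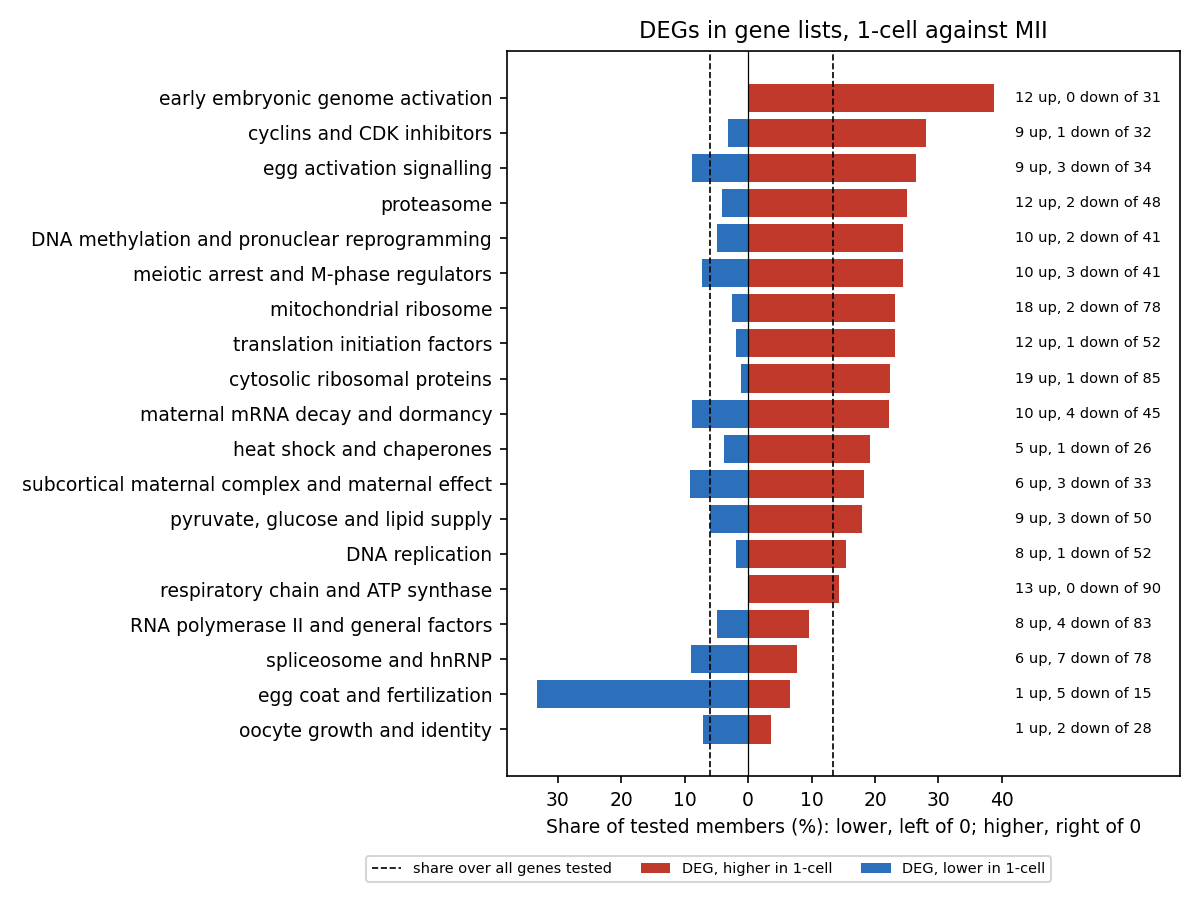
Share of the tested members of 19 gene lists (y axis) that were DEGs, in percent (x axis), higher in 1-cell embryos to the right of 0 and lower to the left, with the counts beside the bars and dashed lines at 13.4% and 6.05% for all genes tested. Early embryonic genome activation has the longest bar to the right and the egg coat the longest to the left.

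The levels of the named genes before and after fertilization, read from the 24 untreated arrays normalized together, fell into different courses. Gadd45g stood at 5.71 in GV, 3.11 in MII, 10.68 in 1-cell and 10.35 in 2-cell embryos, so that most of its rise had been reached at the 1-cell stage. Usp17le-ps (4.52, 2.35, 7.89 and 13.87), Pramel39 (2.53, 2.28, 7.59 and 13.19) and Gm4340 (5.79, 5.56, 8.85 and 15.94) were low in both kinds of oocyte and went on to a maximum among the 8 stages at the 2-cell stage. Zscan4f also peaked there, at 15.45, but its GV level of 9.72 was above its 1-cell level of 8.42. Zscan4a (9.58 in GV, 5.66 in MII and 8.69 in 1-cell) and Hspa1a (8.14, 5.55 and 7.01) also stood lower in 1-cell embryos than in GV oocytes.

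Several of the other named genes that rose had been high in GV oocytes. Eif4h was at 15.43 in GV, 7.27 in MII, 11.10 in 1-cell and 11.42 in 2-cell, Rpl24 at 16.10, 9.498, 12.73 and 13.92, and Fen1 at 14.26, 5.84, 8.82 and 11.14. For Psmc1 the levels were 16.17, 11.39, 14.17 and 12.25, for Npm2 17.76, 13.60, 15.82 and 14.38 and for Orai1 11.87, 7.67, 11.08 and 9.10. These 6 genes stood lower in 1-cell embryos than in GV oocytes, and Psmc1, Npm2 and Orai1 were lower again in 2-cell embryos. Papolg (13.11, 8.63, 11.14 and 6.29) and Pabpc1l (15.81, 10.61, 13.21 and 10.42) also rose from MII to 1-cell, and Papolg was lower in 2-cell embryos than in MII.

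Among the genes that fell, Mos (15.01, 11.70, 9.33 and 5.70), Bub1b (15.94, 14.95, 11.86 and 9.08) and Gdf9 (18.17, 17.93, 16.58 and 15.46) were lower at every step. Klhl18 (13.92, 12.44, 6.74 and 8.07) and Btg1 (12.75, 12.00, 7.51 and 11.08) were lowest at the 1-cell stage of all 8 stages and were higher again at the 2-cell stage. Btg4, not called at fertilization, was at 15.13 in MII, 14.84 in 1-cell, 13.61 in 2-cell and 9.24 in 4-cell embryos.

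**Figure D5:**
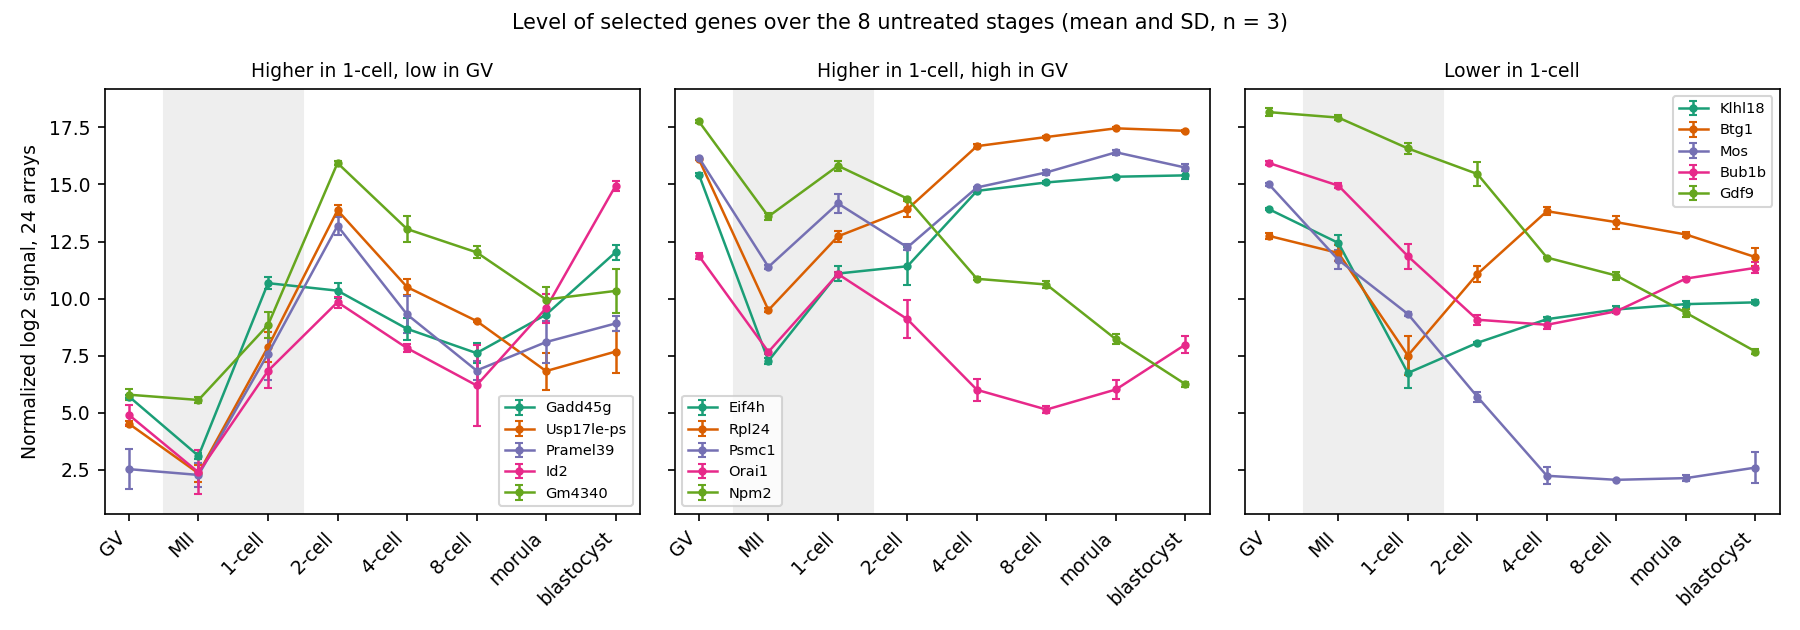
Normalized log2 signal (y axis, mean and SD, n = 3) of 15 genes over the 8 untreated stages (x axis), with MII and 1-cell shaded. The genes on the left are low in GV and MII, those in the middle are high in GV and low in MII, and those on the right are lower in 1-cell than in MII, with Mos at 2.24 by the 4-cell stage.

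Probes were also compared by detection alone. A probe was gained if it was well above background on every 1-cell array but no MII array, and lost in the reverse case. Of 31381 probes with a gene name, 274 were gained and 101 lost. The flag is set before arrays are scaled, and the 75th percentile of the signal was 1.31, 1.28 and 1.31 times as high on the 1-cell array as on the MII array of the same slide, a difference whose part in these counts was not tested. Of 6762 named probes outside the comparison above, because 1 or both groups had no positive and significant signal or because a spot was flagged, 14 were gained and 3 lost. The gained ones included probes of Hexim1, an inhibitor of the elongation factor P-TEFb, the thrombin receptor F2r, Etv2 and Usp17lb, and those lost were of Cln3, Galnt4 and Pigm.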

How the data were processed

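The authors labelled poly(A)-primed RNA with Cy3, hybridized it to 1-colour Agilent mouse arrays and read the scans with Agilent Feature Extraction, version 9.5.1.1 in their processing notes and 10.7.1.1 per the file headers. The intensity values that they deposited had been corrected for background and for trends across each array by that software, and not normalized between arrays. The authors' normalized log2 values, deposited as a series matrix, were used as an alternative. An array held 55681 probes in 59305 spots. The number of arrays, 3 per group, limits the precision.

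Control and outlier spots were left out and spots of a probe averaged. Probes were named from the NCBI RefSeq table by accession (27235), symbol (3581) or synonym (565), and 24300 stayed unnamed. A probe was kept when both groups had 1 or more arrays with a positive and significant signal, which removed 6756, and each gene was read from its brightest probe. Log2 intensity was normalized over the 6 arrays by smooth quantile normalization written for this work and fitted with limma 3.58.1 in R 4.3.3 with Benjamini-Hochberg adjustment. Low signals kept the value deposited and were not imputed. The packages data.table (1.17.8) and statmod (1.5.0) were used. On simulated data with 18049 genes and independent noise, 100 genes were changed by an LFC of 1.5 and 100 by 2. The fit recovered 74% of the former and 84% of the latter, and called 3 unchanged genes. Far fewer genes were changed there than were called in the data, and no slide effect was simulated. These rates therefore need not hold for the comparison above.

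Named genes were the 8 largest rises and falls among DEGs without overlap, the 3 DEGs with the largest change of each list and a fixed set of key genes. Some genes that this rule names are not reported here. Other list members were named after their values were seen. The genes and lists were chosen with earlier results of these data known. A replicate number of MII and 1-cell arrays marked a shared slide per the file headers. Deviations from the group means correlated by 0.182, 0.0649 and 0.148 for the same number, and by -0.146 to 0.0206 for others. Alternatives changed the scaling, background correction, filter, choice of probe, arrays fitted, weights, blocks and thresholds.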

Additional observations from a re-analysis of the deposited data

Results flagged for a closer look

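Of the 24300 probes that could not be given a current gene name and were left out of the comparison, 208 were well above background on all 3 arrays of 1-cell embryos and on no array of MII oocytes, and 41 were so on all 3 MII arrays and on no 1-cell array. Of the 31381 named probes 274 and 101 were so, and the proportion gained was thus close to that of named probes. The 75th percentile of the signal was also 1.31, 1.28 and 1.31 times as high on the 1-cell arrays, and its part in these counts was not tested. The unnamed probes stand here because they are signals outside the genes compared, and the MII arrays served as the level to exceed.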

How the results depend on the processing

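The number of DEGs (3504) lay between 3293 and 3792 when 1 array was left out, with 2146 to 2769 rises and 876 to 1201 falls and a median LFC of all genes of 0.00134 to 0.145. The replicate block, with slide number as the pair, gave 3500 DEGs, and slide as a random block 3533. Scaling to the median gave 1803 falls and a median LFC of -0.2. Normexp background correction gave 2106 DEGs (1429 rises, 677 falls), and the authors' matrix, with 10828 genes tested, gave 2423 DEGs (1786 rises, 637 falls). Without a limit on the LFC 8296 genes were called (4608 rises, 3688 falls), and with treat against an LFC of 1, 1178 (860 rises, 318 falls). Of 75 named genes called, 66 kept the call in every setting that gave a value, 19 to 21 settings per gene. The LFC of 18 of the 75 moved by over 1.5 times with normexp, 7 with the mean of probes, 1 with scaling to the median and 1 with low signals as missing. Nlrp5 was not called in 9 settings, and Cdkn2c was not called without 1-cell replicate 3 (LFC 2.29). Genes that were not called changed sign with the mean of probes for Ccnb1 (0.345), Cnot6l (0.0361) and Tet3 (0.291) and with normexp for Cdc20 (0.0413). With 1 array left out, Cnot6l ranged from -0.11 to 0.0055 and Tet3 from -0.232 to 0.0186. The cause was not tested. Signals near background limit the LFC of dim genes.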
